A study of Arabis alpina with 12 samples.

Results

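In young leaves of Arabis alpina, 653 short domains of DNA methylation formed the upper tail of the deposited list in signal per length. They are the 5-methylcytosine (5mC) domains under 5000 bp whose score per kb of domain was at least 3 times the median of the list. They made up 1.07% of the 61122 domains in the list, and 60209 of those domains were under 5000 bp. Arabis alpina is a perennial relative of Arabidopsis, and the accession here was Pajares. Plants were kept in soil at 22.5 °C with light for 16 h and darkness for 8 h, and every library came from young leaves with no treatment or mutation named. Antibodies to 5mC, H3K4me3, H3K27me3 and H3K27me1 gave 2 libraries each, beside 1 input library for chromatin, 2 for methylated DNA and 1 mRNA library, 12 in all. Each mark was deposited as 1 domain list for both libraries, so replicate error cannot be given. The files do not pair gene identifiers with names, so the leaf tissue was not checked against marker genes.

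Cytosine methylation in plants lies mainly over transposons and other repeats, where it is copied at each round of replication and helps to keep them silent. H3K27me1, set by the ATXR5 and ATXR6 enzymes in Arabidopsis, marks the same heterochromatin. H3K27me3 is the mark of Polycomb repression, found mostly over silent genes, and H3K4me3 marks the starts of active genes. Methylated DNA was enriched here with an antibody and sequenced (MeDIP-seq), and the histone marks by chromatin immunoprecipitation (ChIP-seq). Such enrichment responds to how many methylated cytosines lie in a stretch as well as to the share of them that is methylated.

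The members were chosen by their 5mC score per kb, so those values are a description. The list median was 673 per kb and the threshold therefore 2020 per kb. Members ran from 2020 to 8140 per kb, that is 3 to 12.1 times the median, with their own median at 3.50 times. Most lay near the threshold, with 453 at 3 to 4 times the median, 105 at 4 to 5 times and 95 at 5 times or more. The 5 members just inside had 2020 to 2021 per kb and the 5 domains just outside 2016 to 2018, so the limit cuts a continuous tail. The members covered 493 kb, 0.860% of the 5mC sequence, and held 2.83% of the summed 5mC score. Their median length was 450 bp, against 600 bp for the 59556 other domains under 5000 bp, and the longest was 4800 bp. Members were 1.2% of the 150 bp domains (exact 95% interval 0.969% to 1.47%), 1.3% of those of 450 to 600 bp (1.12% to 1.5%) and 0.822% of those of 2550 to 4950 bp (0.538% to 1.2%).

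**Figure D1:**
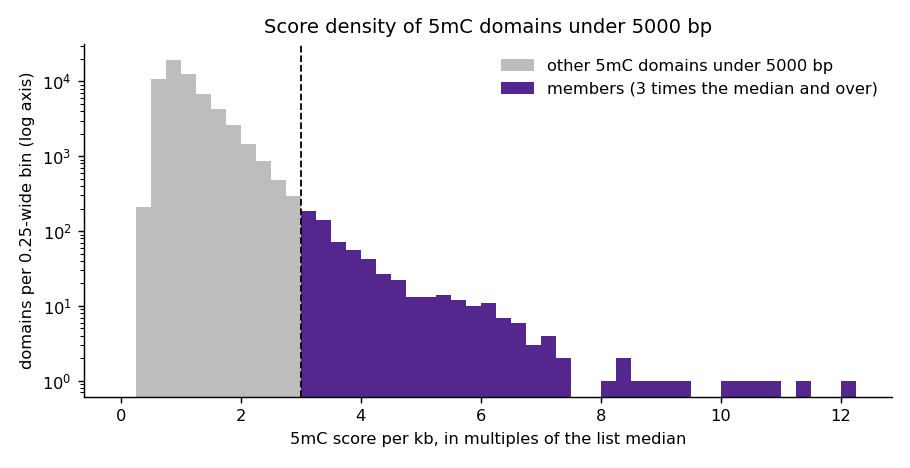
Number of 5mC domains under 5000 bp (vertical log axis, bins 0.25 wide) by score per kb in multiples of the list median, with members in purple and the other domains in grey. The dashed line marks 3 times the median, and the members form the end of a tail that reaches 12.1.

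The member with the highest score density, among domains under 5000 bp, lay at the very start of scaff_47789_1 (1 to 300), with 8140 per kb. H3K27me1 covered all of it, at 2.24 times the median density of its own list. The next lay on chromosome 4 (3928801 to 3929850), at 7721 per kb over 1050 bp, and no domain of another mark touched it. Another member lay on the same 5.55 kb stretch (3933001 to 3934350), at 8.19 times the 5mC median, wholly inside an H3K27me1 domain at 10.4 times its own. Both lay outside listed genes.

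The third was 600 bp on chromosome 6 (32967151 to 32967750), at 10.9 times the median, wholly inside H3K27me1 at 4.17 times. Of the 10 members of highest density, 7 were on unplaced scaffolds and 5 of these reached the first or last base of the scaffold's extent. H3K27me1 lay over 6 of the 10, and neither H3K27me3 nor H3K4me3 touched any of them. Of all 5mC domains, H3K27me1 lay over 52.5%, while H3K27me3 touched 15.0% and H3K4me3 18.2%. No difference is read from these counts of 10. The only 1 of the 10 in a listed gene was the tenth, 1500 bp on chromosome 3 (881701 to 883200). It was at 8.66 times the 5mC median and inside H3K27me1 at 8.94 times. The lengths of the 10 ran from 150 to 1500 bp.

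All of the other marks lay over the members more often than over other 5mC domains, counting a mark when it covered at least 50% of a domain's length. H3K27me1 did so at 433 members, 66.3% (exact 95% interval 62.5% to 69.9%), against 52.5% of all 5mC domains and 51.7% (51.3% to 52.1%) of the other domains under 5000 bp. H3K27me3 covered 139 members, 21.3% (18.2% to 24.6%), against 9.65% of all 5mC domains and 9.59% (9.35% to 9.83%) of the others. H3K4me3 covered 106, 16.2% (13.5% to 19.3%), against 7.22% of all and 7.11% (6.90% to 7.32%) of the others. The intervals of members and others do not overlap for any of the marks. They cover counting error only, and domains are not replicates.

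As a ratio, the difference was larger for complete cover than for 50% cover for each of the 3 other marks. H3K27me1 spanned 45.2% of members end to end (41.3% to 49.1%) and 20.6% of the others (20.3% to 20.9%). For H3K27me3 these shares were 16.1% (13.3% to 19.1%) and 5.21% (5.03% to 5.39%), and for H3K4me3 9.34% (7.22% to 11.8%) and 2.15% (2.04% to 2.27%). By any contact, H3K27me1 touched 68.0% of members (64.3% to 71.6%) and 62.7% of the others (62.3% to 63.1%). H3K4me3 touched 18.2% of members (15.3% to 21.4%) and 17.2% of the others (16.9% to 17.5%), and these H3K4me3 intervals overlap. At matched length the contact with H3K4me3 differed in opposite directions. At 450 to 600 bp it touched 23.8% of members (18.0% to 30.5%) and 13.0% of the others (12.4% to 13.5%), and at 2550 to 4950 bp 26.9% of members (11.6% to 47.8%) and 52.8% of the others (51.1% to 54.6%). In the other 4 length classes the intervals overlap. Of the H3K27me1 domains touching members, 11.9% (9.07% to 15.3%) had exactly the borders of the 5mC domain, against 4.14% (3.94% to 4.35%) for the others.

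Taking the marks together, 183 members (28.0%, 24.6% to 31.6%) had no other mark over 50% of their length, against 44.4% of all 5mC domains. H3K27me1 alone accompanied 266 members (40.7%, 36.9% to 44.6%), close to the 40.6% (40.2% to 41.0%) of the other domains. H3K27me1 with H3K27me3 lay over 67 members (10.3%, 8.04% to 12.8%) and 4.54% of the others. H3K27me1 with H3K4me3 lay over 61 (9.34%, 7.22% to 11.8%) and 4.18% of the others. All 3 other marks covered 39 members (5.97%, 4.28% to 8.07%), against 2.38% of all 5mC domains. H3K27me3 without H3K27me1 or H3K4me3 was found at 31 members (4.75%, 3.25% to 6.67%) and 2.58% (2.45% to 2.71%) of the others. The members without any other mark were short, with a median of 300 bp, and their 5mC density, a median of 3.45 times the list median, was close to the 3.58 times of those with H3K27me1 alone.

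Where another mark touched a member, its own score density was in most cases above the median for that mark. For each member the domain of the other mark sharing most bp was taken, and its score per kb divided by the median of that mark's list. H3K27me1 domains at 444 members had a median of 1.75 times their list median (order-statistic 95% interval 1.65 to 1.92), and those at other 5mC domains 1.01 (1.01 to 1.01). H3K27me3 domains at 145 members had 1.42 times (1.33 to 1.59), against 0.904 (0.899 to 0.909). H3K4me3 domains at 119 members had 1.25 times (1.08 to 1.34), against 0.758 (0.756 to 0.764). In score per kb these medians were 438, 667 and 713 at members and 253, 426 and 433 at the others.

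Of the H3K27me1 domains at members, 397 of 444 lay above their list median, 89.4% (86.2% to 92.1%), against 53.1% over all 5mC domains touching the mark. For H3K27me3 it was 120 of 145, 82.8% (75.6% to 88.5%), against 30.6%. For H3K4me3 it was 79 of 119, 66.4% (57.2% to 74.8%), against 13.0%. At 3 times their own list median or more were 89 of the H3K27me1 domains, 20.0% (16.4% to 24.1%), against 0.599% over all 5mC domains touching that mark. For H3K27me3 this was 13 of 145, 8.97% (4.86% to 14.8%), against 0.448%, and for H3K4me3 5 of 119, 4.20% (1.38% to 9.53%), against 0.162%. At 47 of the 444 members touched by H3K27me1 (10.6%), that domain stood further above its own list than the member did in 5mC. For H3K27me3 this held at 7 members and for H3K4me3 at 3. The same count was not made for other 5mC domains. Members were chosen at 3 times the 5mC median or more, which lowers this count by construction, so no excess is read from it. The input libraries at these places were not analysed here.

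**Figure D2:**
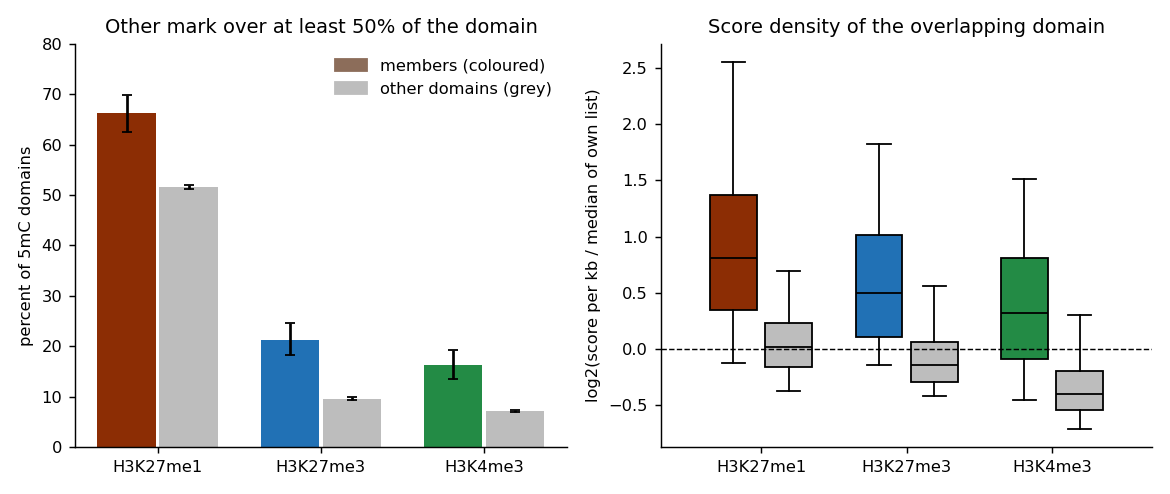
Left, percent of 5mC domains with each other mark over at least 50% of the length, for members (coloured) and other domains under 5000 bp (grey), with exact 95% intervals. Right, log2 of the overlapping domain's score per kb over the median of its own list, as medians, quartiles and 5th to 95th percentiles. Members stand above the others for every mark in both panels, at 66.3% against 51.7% for H3K27me1.

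Members with the strongest other marks were not the same ones for each mark. The 3 highest in H3K27me1, at 16.2 to 16.9 times its list median, were the 3 members of scaff_57616_1, on which no gene is listed and the furthest domain, itself a member, ends at 16.05 kb. They lay at 1 to 1650, 4051 to 4800 and 14551 to 16050, at 3.65 to 5.05 times the 5mC median, and no H3K27me3 or H3K4me3 domain touched them. The fourth, on chromosome 1 (645901 to 646950), had H3K27me1 at 16.1 times. The highest in H3K27me3 was 2100 bp on scaff_63180_1 (2551 to 4650), at 8.81 times the H3K27me3 median, with H3K4me3 at 2.86 times and no H3K27me1. On chromosome 3 a member of 3150 bp (25694851 to 25698000) lay wholly inside H3K27me3 at 5.81 times and H3K27me1 at 6.14 times. The highest in H3K4me3 was 600 bp on scaff_41246_1 (28801 to 29400), at 5.72 times the H3K4me3 median and 6.62 times the 5mC median. It had no H3K27me1 or H3K27me3 and lay wholly inside a listed gene with an mRNA coverage of 2.15.

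Across members the densities of the other marks went together. The relative densities of H3K27me1 and H3K4me3 had Spearman rho = 0.88 over 112 members touched by both (Pearson r = 0.89 of log2 values). For H3K27me1 and H3K27me3 rho was 0.84 (r = 0.85, 112 members), and for H3K27me3 and H3K4me3 0.82 (r = 0.81, 46 members). Over the other 5mC domains these values of rho were 0.48 (9766 domains), 0.43 (7045) and 0.52 (3888). 5mC itself followed H3K27me1 less closely, with rho = 0.44 over 444 members (r = 0.44). Over 37353 other domains that rho was 0.23 (r = 0.29), lower than at members. These relations are descriptions across places: the 3 histone marks share the 1 chromatin input library, and the members were cut from the upper end of 5mC density.

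The rise in the other marks' density began below the threshold and went on above it. Among 5mC domains under 5000 bp at 1 to 1.5 times the 5mC median, overlapping H3K27me1 domains had a median of 1.03 times their own list (1.03 to 1.04). At 2 to 3 times the 5mC median it was 1.24 (1.21 to 1.27), at 3 to 4 times 1.53 (1.44 to 1.64), at 4 to 5 times 2.35 (1.97 to 2.61), and at 5 times or more 2.67 (2.24 to 3.19). H3K27me3 went from 0.926 (0.920 to 0.932) at 1 to 1.5 times to 1.96 (1.37 to 2.41) at 5 times or more, and H3K4me3 from 0.781 (0.776 to 0.787) to 2.02 (1.68 to 2.33). In the highest class these medians rest on 65 members touched by H3K27me1, 17 by H3K27me3 and 12 by H3K4me3.

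The share of domains carrying H3K27me1 did not follow the same course. It was 53.3% (52.4% to 54.3%) at under 0.75 times the 5mC median and 50.5% (48.7% to 52.3%) at 2 to 3 times. Among members it was 64.0% (59.4% to 68.4%) at 3 to 4 times, 75.2% (65.9% to 83.1%) at 4 to 5 times and 67.4% (57.0% to 76.6%) at 5 times or more. H3K27me3 rose from 7.44% (6.96% to 7.95%) in the lowest class to 15.6% (14.3% to 16.9%) at 2 to 3 times and 22.3% (18.5% to 26.4%) at 3 to 4 times. At 5 times or more it was 16.8% (9.94% to 25.9%), which overlaps the classes below.

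**Figure D3:**
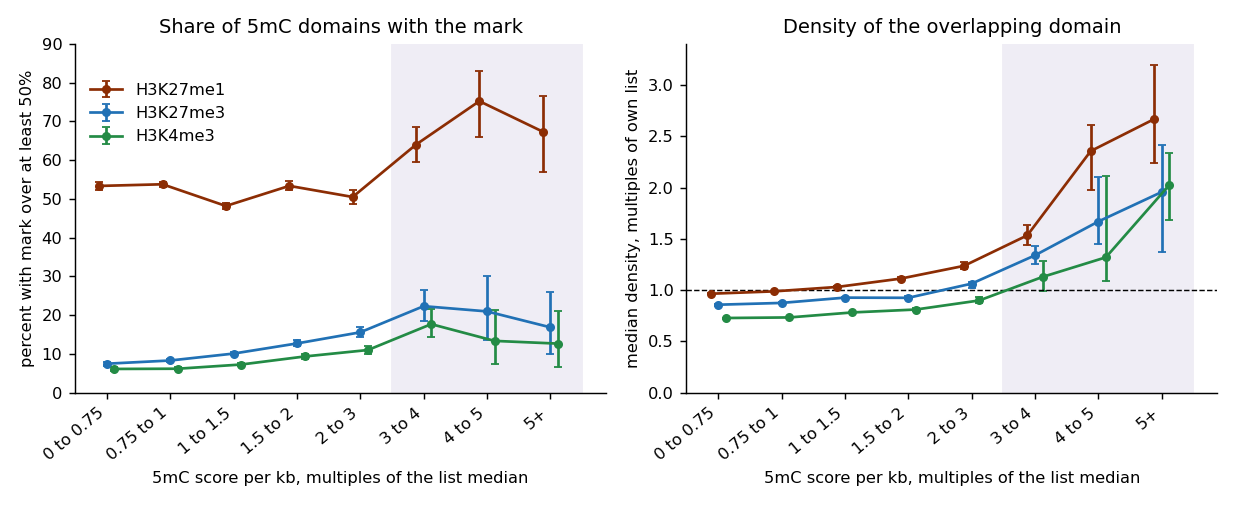
Other marks at 5mC domains under 5000 bp, by class of 5mC score per kb in multiples of the list median, with members in the shaded classes. Left, percent of domains with the mark over at least 50% of the length (exact 95% intervals), and right, median score per kb of the overlapping domain in multiples of its own list (order-statistic 95% intervals). H3K27me1 density reaches 2.67 in the highest class, where 65 members touched H3K27me1, 17 H3K27me3 and 12 H3K4me3.

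By cover of at least 50%, H3K27me1 lay over a larger share of members than of others in each of 6 length classes. Its median density was also higher at members in each class, and neither set of intervals overlaps. Among 150 bp domains, H3K27me1 lay over 45.7% of members (35.2% to 56.4%) and 25.5% of the others (24.5% to 26.5%), at median densities of 1.41 (1.24 to 1.76) and 1.00 (0.987 to 1.01) times its list. Among domains of 450 to 600 bp the shares were 70.5% (63.5% to 76.8%) and 50.2% (49.4% to 51.1%), and the densities 1.65 (1.51 to 1.89) and 1.01 (1.00 to 1.01). Among those of 1350 to 2400 bp the shares were 87.3% (77.3% to 94.0%) and 71.4% (70.4% to 72.3%), and the densities 2.31 (1.84 to 2.79) and 1.02 (1.02 to 1.03). By any contact, however, H3K27me1 touched 91.5% of members of that length (82.5% to 96.8%) and 94.0% of the others (93.5% to 94.5%). At 750 to 1200 bp contact was 72.8% (64.5% to 80.1%) for members and 76.7% (76.0% to 77.4%) for others. In both classes the contact intervals overlap. All 26 members of 2550 bp or more carried H3K27me1, against 83.1% (81.7% to 84.4%) of others that long. By any contact H3K27me1 touched 99.3% of those others. H3K27me3 was carried by 42.3% of these members (23.4% to 63.1%), against 7.11% (6.23% to 8.06%) of others that long. By any contact with H3K27me3 the shares were 42.3% (23.4% to 63.1%) and 32.4% (30.8% to 34.1%), and these intervals overlap. For H3K27me3 in 150 bp domains the intervals of members, 10.9% (5.34% to 19.1%), and others, 6.55% (6.0% to 7.13%), overlap. For H3K4me3 they overlap at 150 bp, with 7.61% (3.11% to 15.1%) and 4.07% (3.63% to 4.54%), at 300 bp, with 11.1% (6.35% to 17.7%) and 7.44% (6.95% to 7.94%), and at 2550 to 4950 bp, with 23.1% (8.97% to 43.6%) and 8.22% (7.29% to 9.24%). The median densities of H3K27me3 and H3K4me3 had overlapping intervals in 150 bp domains only. There H3K27me3 had 0.977 (0.833 to 1.34) at 10 members and 0.974 (0.949 to 0.989) at others. H3K4me3 had 0.886 (0.665 to 1.78) at 7 members and 0.762 (0.741 to 0.785) at others.

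Seen from the other lists, the densest domains of H3K27me1 met members often. Of 278 H3K27me1 domains at 3 times their list median or more, 91 touched a member, 32.7% (27.2% to 38.6%), against 0.651% (0.586% to 0.720%) of the 56416 less dense ones. The share touching any 5mC domain was 79.9% (74.7% to 84.4%) and 81.8% (81.5% to 82.1%), so dense and less dense H3K27me1 domains met methylation about equally often. For H3K27me3, 12 of 81 dense domains touched a member, 14.8% (7.90% to 24.4%), against 0.574% (0.480% to 0.680%) of the rest. For H3K4me3 it was 5 of 877, 0.570% (0.185% to 1.33%), against 0.328% (0.272% to 0.392%), with overlapping intervals. Dense H3K4me3 domains seldom met methylation at all: 2.05% of them (1.22% to 3.22%) touched any 5mC domain, against 35.7% (35.2% to 36.2%) of the less dense ones.

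Beyond their borders, members on chromosomes lay in sequence with less methylation than the surroundings of other domains. Averaged over positions 4.5 to 5.5 kb from the centre, 5mC covered 17.6% around members and 26.8% around others on chromosomes, and H3K27me1 15.0% and 23.3%. H3K27me3 covered 10.7% and 8.37% there, H3K4me3 8.52% and 9.18%, and listed genes 23.2% and 16.2%. At the centre, H3K27me3 reached 19.8% at members against 9.58% at others, and H3K4me3 13.2% against 7.09%. The gap from a member to the nearest other 5mC domain had a median of 1200 bp (1050 to 1500), against 450 bp (450 to 450) for the other domains under 5000 bp. That nearest domain was itself denser than usual, at a median of 1.22 times the list median (1.15 to 1.30), against 0.990 (0.985 to 0.991). Listed genes filled a median of 24.3% (22.9% to 25.3%) of the 500 kb stretch of chromosome around members and 18.7% (18.7% to 19.0%) around others.

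**Figure D4:**
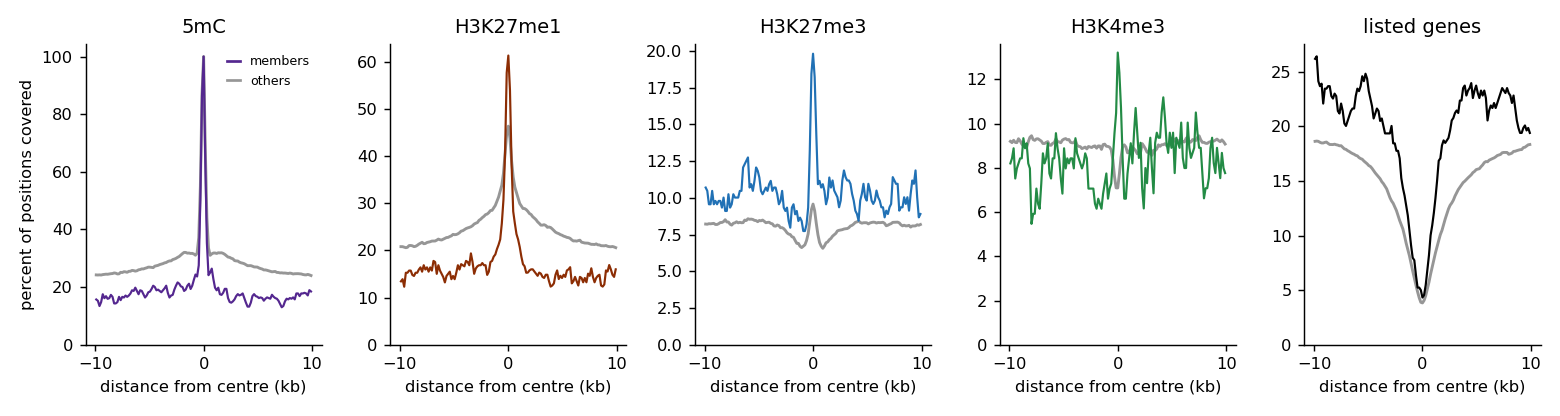
Percent of positions covered by each mark and by listed genes, in 150 bp steps up to 10 kb from the centre of 5mC domains on chromosomes, for members (coloured, black for genes) and other domains under 5000 bp (grey). Around members 5mC and H3K27me1 drop to lower levels, 17.6% and 15.0% near 5 kb, and listed genes to higher ones, 23.2%.

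Few members lay in listed genes, at a share near that of methylated domains in general. A listed gene is one of the 24657 in the mRNA table, which has no value below 1. Of the members, 37 touched a listed gene, 5.67% (4.02% to 7.73%), against 4.43% of all 5mC domains and 4.36% (4.20% to 4.53%) of the others under 5000 bp. The intervals overlap, so no difference was detectable. On chromosomes 30.1% of members (25.8% to 34.6%) lay within 2000 bp of a listed gene without touching it, against 19.5% (19.1% to 19.9%) of the others. Their median distance to the nearest listed gene on the same sequence was 3611 bp (3063 to 4573) and 6257 bp (6162 to 6341).

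The members touched 35 genes, 0.142% of all listed genes, and these had little mRNA. Their coverage ran from 1 to 52.5, with a median of 1.36 (95% interval 1 to 1.69) and quartiles of 1 and 2.29. The median over all listed genes was 5.77 (5.67 to 5.89), and over the 1643 genes touched by other 5mC domains under 5000 bp alone it was 2.41 (2.20 to 2.66). Where at least 200 bp of the gene lay in 1 domain, the medians were closer. They were 1.34 (1 to 1.69) for 32 genes in members and 1.93 (1.76 to 2.12) for 1240 in other domains alone. Of the 35 genes, 13 were at a coverage of exactly 1, which is the floor of the table, 37.1% (21.5% to 55.1%), against 8.86% of all listed genes and 27.6% (25.4% to 29.8%) of those touched by other domains. The intervals for genes touched by members and by other domains overlap. The median of all listed genes was exceeded by 4 of the 35, 11.4% (95% interval reaching up to 26.7%). Among genes touched by other domains alone 27.7% (25.5% to 29.9%) exceeded it, and these intervals overlap too. With 1 mRNA library no p-value was computed.

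The 84 genes that lay within 1 kb of a member and touched no 5mC domain under 5000 bp were unlike those touched. Their median coverage was 6.26 (4.91 to 8.92), against 6.51 (6.22 to 6.82) for the 4797 genes within 1 kb of other domains only. At least 200 bp of H3K27me1 lay on 25 of the 35 touched genes (71.4%, 53.7% to 85.4%), on 48.5% (46.1% to 51.0%) of genes touched by other domains and on 4.60% of all listed genes. Among genes with at least 200 bp in a domain, it lay on 75% (56.6% to 88.5%) of those in members and 60.5% (57.7% to 63.2%) of those in other domains, and these intervals overlap. H3K4me3 lay on 24 of the 35 (68.6%, 50.7% to 83.1%), on 67.6% (65.3% to 69.9%) of genes touched by other domains and on 76.2% of all listed genes.

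The gene of highest coverage with at least 200 bp in a member was Aa_G249940 on chromosome 4 (22822232 to 22823561), at 52.5. The member covered 78.9% of its span and H3K4me3 76.6%, with no H3K27me1 or H3K27me3. Aa_G110350 on chromosome 2 (16639878 to 16654163) followed with 7.84. It spans 14286 bp, and the member took up only 300 bp of it. Of the 32 genes with that overlap, 12 were tied at the lowest value of 1, among them genes lying wholly inside a member.

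Members were found on scaffolds more than other domains were, and this went with the scaffold ends. Of the 653, 214 lay on 191 unplaced scaffolds, 32.8% (29.2% to 36.5%), against 25.7% of all 5mC domains. Members were 1.39% (1.21% to 1.59%) of the scaffold domains under 5000 bp and 0.980% (0.891% to 1.08%) of those on the 8 chromosomes. Between chromosomes the share ran from 0.846% (0.638% to 1.1%) on chromosome 2 to 1.14% (0.847% to 1.51%) on chromosome 3, with overlapping intervals. The median 5mC score per kb of all domains under 5000 bp was 673 on scaffolds and 669 on chromosomes.

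At the first or last base of a scaffold's extent lay 89 of the 214 scaffold members, 41.6% (34.9% to 48.5%), against 9.70% of all 5mC domains on scaffolds and 9.20% (8.75% to 9.67%) of the others under 5000 bp. At the first base it was 34 members, 15.9% (11.3% to 21.5%), against 2.13% (1.91% to 2.37%) of the others. The extent ends where the furthest domain or listed gene ends, since scaffold lengths are not in these files, so the last base is partly set by the domains themselves and the first base is not. The share of scaffold domains at an edge was higher in classes of higher 5mC density. It was 4.88% (4.12% to 5.73%) at under 0.75 times the median, 9.68% (8.86% to 10.5%) at 1 to 1.5 times, 23.1% (20.3% to 26.2%) at 2 to 3 times and 54.1% (36.9% to 70.5%) at 5 times or more.

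Without the domains at edges, the share of members on scaffolds was 22.2% (18.8% to 25.8%), against 23.7% (23.4% to 24.1%) of the others. Inside scaffolds members were 0.898% (0.748% to 1.07%) of domains, close to the 0.980% on chromosomes. At edges they were 5.99% (4.83% to 7.31%). Members lay on small scaffolds, with a median extent of 19.7 kb against 47.25 kb for the others. Within each class of extent from 5 kb upward, however, the share at edges was higher, as in scaffolds of 20 to 50 kb with 4.69% (2.65% to 7.61%) at edges and 0.870% (0.596% to 1.23%) inside. In scaffolds under 5 kb the shares were 2.16% (0.447% to 6.18%) and 1.63% (0.338% to 4.69%). Inside scaffolds too members took a larger share of small ones, with 1.75% (1.1% to 2.64%) at extents of 5 to 10 kb and 0.475% (0.277% to 0.760%) at 100 kb or more. H3K27me1 at edge members had a median density of 2.31 times its list (2.05 to 2.69), and at members inside scaffolds 1.56 times (1.37 to 1.92). For the other domains these medians were 1.2 (1.17 to 1.24) and 1.03 (1.03 to 1.04).

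**Figure D5:**
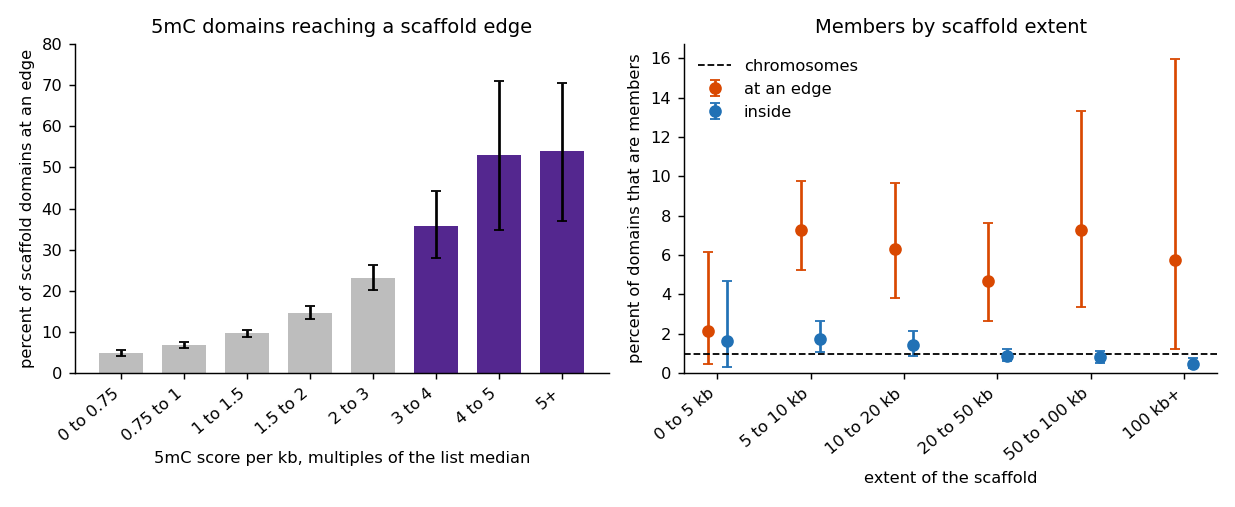
Left, percent of scaffold 5mC domains under 5000 bp that reach the first or last base of the scaffold's extent, by class of 5mC score per kb in multiples of the list median (members purple). Right, percent of domains that are members, at edges and inside, by scaffold extent, with the chromosomes as a dashed line, and exact 95% intervals in both panels. The share at an edge goes from 4.88% to 54.1%.

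The members were mostly scattered, with a minority in pairs. Another member lay within 10 kb of 62 of them, 9.49% (7.36% to 12%), against 3.79% of all 5mC domains. Among the other domains under 5000 bp 3.72% (3.57% to 3.88%) had a member that close. Within 1 kb the shares were 2.45% (1.41% to 3.95%) and 0.547% (0.490% to 0.610%), and within 100 kb 31.9% (28.3% to 35.6%) and 25.4% (25.1% to 25.8%). The median gap between successive members of a sequence was 285 kb.

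Joined at gaps of up to 10 kb, members formed 30 groups, 28 of 2 members and 2 of 3. The larger groups were the 3 members of scaff_57616_1 and 3 members on chromosome 6 (27834751 to 27838050). Those on chromosome 6 were at 3.05 to 3.52 times the 5mC median, all under H3K27me1 at 1.26 to 1.57 times its own. Among the pairs, the most sequence inside members, 5250 bp, was on scaff_39075_1 (1 to 6000), with both members touching a listed gene and H3K27me1 at 4.91 to 6.78 times. On chromosome 3 (876151 to 883200) a pair at 6.79 and 8.66 times the 5mC median, both touching a listed gene, had H3K27me1 at 4.87 and 8.94 times. On chromosome 4 (17529601 to 17538150) 2 members had 3.69 and 4.81 times the 5mC median, and 1 of them lay under H3K27me1, at 7.01 times.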

How the data were processed

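Domain lists of 5mC, H3K27me1, H3K27me3 and H3K4me3 were deposited, 1 per mark for the series. Per the submitters' processing notes, Bowtie and SICER were used, with no version stated. The genome build, the calling parameters and how replicates were combined were not given in the sources used here. The deposited lists hold a whole-number score per domain, which the authors did not label, and it was used only within a list. The mRNA table was deposited as a signal, by its name the coverage of exons by gene, with no stated scaling. Depth is unknown for every library.

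Starts were read as 0-based and ends as inclusive, and positions in the authors' assembly are given 1-based. Lengths are multiples of 150 bp (300 bp for H3K27me3). Score per kb is the score divided by length, set against the list median. Shares carry exact Clopper-Pearson and medians order-statistic 95% intervals. No test was run: there is 1 list per mark and the members were chosen by score. The members and the values described were chosen with earlier results of these data known. Regions named were the 10 densest members, the 5 on each side of the threshold, the 5 largest groups within 10 kb and the 5 highest in each other mark. Genes named were the 2 of highest coverage with at least 200 bp in a member, and the lowest were tied. Only some of these are printed. Overlap counting was tested on simulated intervals. Python 3.11.15, pandas 2.3.3, numpy 2.4.6 and scipy 1.17.1 were used. Lists of leaf and methylation genes could not be looked up without gene names.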

Additional observations from a re-analysis of the deposited data

How the results depend on the processing

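Of 99 alternative values, 68 stayed within the interval of the reported value (or 1.5 times, for the count) and 31 moved outside it. At 2 times the median there were 3778 domains, with H3K27me1 over 53.2%, H3K4me3 over 11.9% and H3K27me3 over 16.5%. Of these 26.9% were on scaffolds and 30.9% had another within 10 kb, and the median densities were 1.31 for H3K27me1, 0.945 for H3K4me3 and 1.09 for H3K27me3, so H3K4me3 was then below its list median. At 5 times the median there were 95 domains, 12.6% with H3K4me3, 16.8% with H3K27me3 and 38.9% on scaffolds. Densities were then 2.67, 2.02 and 1.96 in the same order, and median mRNA coverage was 2.15. The 324 members of at least 600 bp had H3K27me1 over 77.2%, H3K4me3 over 20.4%, H3K27me3 over 25.3% and an H3K27me1 density of 1.96. On chromosomes alone H3K4me3 covered 12.8% of members, against 6.48% (6.26% to 6.72%) of the other domains under 5000 bp there. With 100% of the length required, the shares were 45.2% for H3K27me1, 9.34% for H3K4me3 and 16.1% for H3K27me3. With 1 kb added to genes, 18.4% of members touched a gene and the median coverage of those genes was 4.5. No share of other domains is given here for the widened genes, so 18.4% is not read as high or low. Another member lay within 1 kb of 2.45% and within 50 kb of 20.8%. Without members at an edge, an alternative chosen after seeing the data, 22.2% were on scaffolds. The cause of these shifts was not tested, except that fewer or more domains enter by construction. No paired analysis was possible because a mark comes as 1 list and not 1 per replicate, and for the same reason no replicate was left out. Neighbouring domains share sequence, so intervals over domains are too narrow by an amount not known here.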

Other observations

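The length limit left out 12 longer domains at 3 times the 5mC median or more. The densest was 14100 bp on chromosome 2 (2339401 to 2353500), at 19.5 times the 5mC median, under H3K27me1 at 30.4 times its own and over 10 listed genes, with no H3K27me3 or H3K4me3. The second was 8400 bp on chromosome 3 (26375701 to 26384100), at 6.23 times. It lay wholly inside all 3 other marks, at 3.62 times the list median for H3K27me1, 3 for H3K27me3 and 2.28 for H3K4me3, and touched no listed gene. A domain of 6750 bp on chromosome 8 (34515901 to 34522650) also lay wholly inside all of them, at 5.04, 4.06 and 3.36 times in that order. On chromosome 8 (1321501 to 1326600) a domain of 5100 bp was inside H3K27me1 at 8.19 times and free of the other marks. These regions were named after their values were seen.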
